A study of Mus musculus with 16 samples.

Results

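Gene expression in the small intestine of Cd36 null mice was compared with that of WT mice. The mice of both groups are labelled as strain C57B6, and the null group carries the genotype Cd36 KO. Each library was made from small intestinal RNA and read by sequencing of transcript 3′ ends so that gene length does not enter the count. There were 4 WT libraries and 3 Cd36 null libraries. The age, sex and diet of the mice, the segment of intestine, the allele that removes Cd36 and the number of animals behind a library are not given in the sources used here. Of the 24420 genes listed, 9314 reached a level of 5 or more in 3 or more of the 7 libraries, and these are the genes described. A level is a read count divided by the library's size factor, and a log2 change is the difference of the mean log2(level + 1), Cd36 null minus WT. A single level given for a group is the mean over its libraries. The same series also holds 9 libraries of isolated enterocytes from WT and Mfge8 null mice, used only for values set side by side.

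CD36 is a membrane scavenger receptor that binds long-chain fatty acids, oxidized lipoproteins and thrombospondin. In the small intestine it sits on the brush border of enterocytes, mainly in the proximal part, where it takes part in fatty acid uptake and in the assembly of chylomicrons, the lipoprotein particles that carry dietary fat into lymph. MFGE8, the protein missing in the enterocyte arm of the series, is a secreted integrin ligand that also acts on fat uptake.

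The libraries held 850297 to 1000694 reads, and 12214 to 12498 genes had at least 1 read. Libraries of 1 genotype agreed close to the limit set by counting: chi-square per degree of freedom between their read counts was 0.987 to 1.117 over the 9 pairs, and 5 of the 9 pairs differed at p under 0.05. Across the 12 pairs of unlike genotype it was 2.14 to 2.28. The libraries of a genotype were therefore taken as 1 preparation each, their values are given as ranges over libraries, and every p-value below compares 2 preparations and not 2 groups of mice. The labels do not say whether libraries of a genotype came from separate animals. All 7 libraries held reads of Xist, which is expressed from the inactive X chromosome, together with reads of the Y-linked genes Ddx3y, Eif2s3y, Kdm5d and Uty. Xist was 465, 441, 486 and 498 in the WT libraries and 319, 360.0 and 341 in the Cd36 null libraries (log2 change -0.47, adjusted p = 9.6e-09), whereas Ddx3y was 44.6 in WT and 44 in Cd36 null on average (log2 change -0.02, adjusted p = 0.97). Whether the difference in Xist has a part in the results below was not tested.

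Markers of the absorptive epithelium were abundant: all 13 enterocyte markers passed the filter, and their summed level was 36849 to 38007 in WT and 38689 to 39542 in Cd36 null. Of these markers 6 were called higher and 1 lower (Fabp2) at an adjusted p under 0.05 in limma's test, beside 4.21% and 3.3% of all genes tested, and 0 of the list passed as higher in limma without a mean-variance trend. Most markers of the intestinal wall and of other cell types did not pass the filter. Of the smooth muscle markers 3 of 13 passed the filter, of the fibroblast markers 1 of 12, of the endothelial markers 1 of 15, of the neuron and glia markers 1 of 14, of the B cell and plasma cell markers 1 of 11, and of the erythroid markers 0 of 5. The smooth muscle list had a summed level of 895 to 956 in WT and 977 to 1029 in Cd36 null, mostly from Mylk (636 and 706, called higher, a call lost in 12 of 17 alternative settings) and Tpm1 (277 and 287), which are not confined to muscle. The fibroblast marker Dcn fell from 15.4–27 to 7.24–10.6 (log2 change -1.13, adjusted p = 0.0034), a call lost in DESeq2. Cdh5, Kdr, Cnn1, Myl9 and Cd79a were listed at 0 in all 7 libraries. A listed 0 does not show that a transcript was absent, because some genes that every cell uses were also listed at or near 0. Ppia and Eno1 had no read in any library and Gapdh had 1 read in all. Other such genes were counted, with 3359 to 4332 reads of Actb, 538 to 775 of Eef2 and 87 to 123 of Hprt per library. These genes were chosen after their values were seen.

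Cd36 itself was lower in the Cd36 null libraries and was not at 0. The gene lies at chr5:17781690-17888959 (mm10), and its level was 114, 116, 111 and 115 in the 4 WT libraries and 15.4, 16 and 6.48 in the 3 Cd36 null libraries, that is 107 to 119 reads against 7 to 17. The groups did not overlap, and the mean in Cd36 null was 11.1% of that in WT. Its log2 change was -3.17 (SE 0.18), with an adjusted p of 1.2e-21 in limma's test. In an exact permutation test over the 35 ways to divide the libraries the 2-sided p was 0.0286, the smallest these divisions can give. The test treats libraries of a genotype as separate units, which they may not be. Which exon the allele removes is not given in the sources used here, so a 3′ read need not lie in the deleted part.

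Of the 9314 genes, 699 passed at an adjusted p under 0.05 (limma, Benjamini-Hochberg), which is 7.5%. The 392 genes that were higher in Cd36 null make up 4.21% of those tested, and the 307 that were lower make up 3.3%. The changes were often small: 309 of the 699 (44.2%) were under 0.5 on the log2 scale, and 164 genes (85 higher, 79 lower; 1.76% of those tested) passed with a change over 1. In 1539 genes, or 16.5%, the values of the WT and Cd36 null libraries did not overlap. The median log2 change over all genes tested was -0.0021. DESeq2 on the recovered reads called 318 genes, all of them among the 699, and limma without a mean-variance trend called 229, of which 210 were among the 699.

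**Figure D1:**
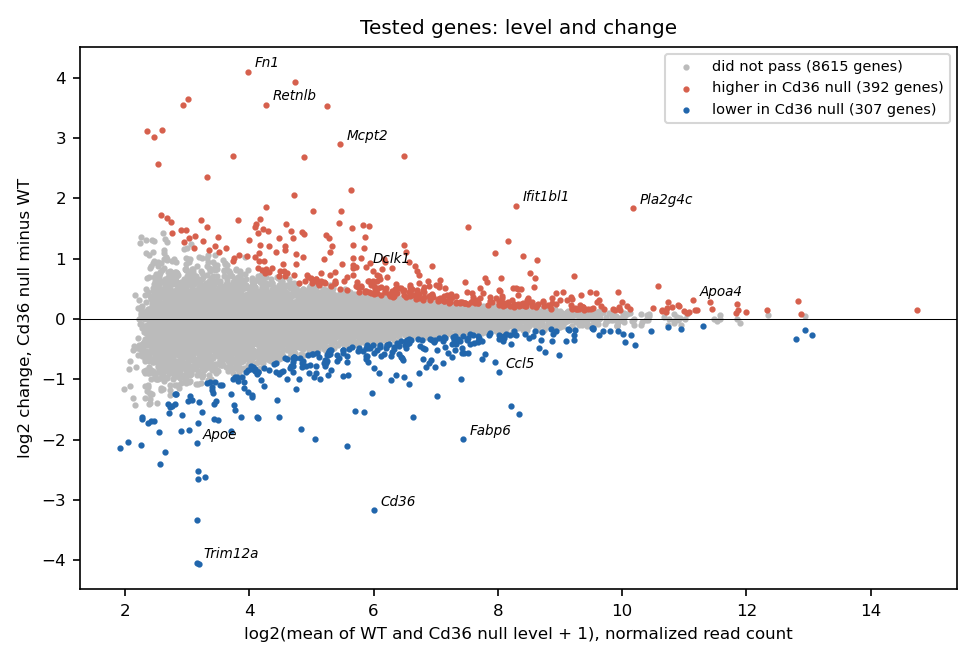
Each point is 1 of the 9314 genes, with the log2 of its mean level plus 1 on the horizontal axis and its log2 change, Cd36 null minus WT, on the vertical axis; red points passed as higher, blue as lower and grey did not pass. Cd36 lies at a log2 change of -3.17, Pla2g4c is the abundant gene with a change of 1.84, and changes of abundant genes such as Apoa4 (0.31) are small.

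The 15 largest rises included a matrix gene, genes of type 2 immunity and several genes close to 0 in WT. Fn1, which encodes the matrix protein fibronectin, was 0.96, 3.1, 0 and 0 in WT and 38, 25.6 and 22.2 in Cd36 null (log2 change 4.1, adjusted p = 4.9e-10). Of the 4 matrix genes tested of 26 listed, Fn1 and Tgfbi (0.29) were higher and Dcn, which encodes decorin, was lower (-1.13). Over all genes tested, 4.21% were higher and 3.3% lower. Most matrix genes were under the filter, so this count is no measure of the list. Retnlb, which encodes the goblet cell protein RELMβ that is induced in type 2 immune responses, was 8.64, 6.2, 0 and 0 in WT and 32.6, 31.9 and 34.2 in Cd36 null (log2 change 3.55, adjusted p = 4.2e-08). The WT libraries split for Retnlb, with reads in libraries 1 and 2 and none in 3 and 4, while the 3 null libraries lay close together; its call was lost in DESeq2 and in limma without a trend. In bulk RNA, a change in the number of cells of a type cannot be told apart from a change in RNA per cell, here and for the marker lists below. Hddc3, a metal-dependent phosphohydrolase, rose from 1.92–3.12 to 45.3–52.2, and Prodh2, a mitochondrial hydroxyproline dehydrogenase, from 1 read in the 4 WT libraries to 43 reads in the 3 null libraries. That is a ratio of levels of 54.3 with a 95% exact binomial interval of 9.24 to 2194, which covers counting error only. BC018473 had 1 read against 41, a ratio of 51.8 with an interval of 8.79 to 2094. The remaining rises in this set were H2-Bl, Mcpt2, Gm766, Mcpt1, Gdpd3, 4933404O12Rik, Mptx1, Nrgn, Ifit1bl1 and Basp1, with log2 changes of 3.53 down to 1.85. Fn1, Retnlb, Hddc3, Prodh2, BC018473, H2-Bl, Gm766 and 4933404O12Rik passed the filter only through the null libraries. Their entry into the test thus rests on the group in which they are high.

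Among the 15 largest falls, Trim34a and Trim12a, members of the tripartite motif family of antiviral proteins, were listed at 0 in all 3 Cd36 null libraries. In WT, Trim34a was 19.2, 16.5, 18.7 and 10.3 and Trim12a 18.2, 18.6, 17.7 and 9.24. Set against a floor of 3 reads over the null group, Trim34a was at least 16.9-fold lower and Trim12a at least 16.6-fold lower. Ocm, the calcium-binding protein oncomodulin, had 60 reads in WT and 2 in Cd36 null, a ratio of 23.8 with an interval of 6.3 to 200.7. Fabp6, the ileal bile acid binding protein of the enterocyte, was the most abundant gene of the set, at 282, 284, 263 and 281 in WT and 67, 77.7 and 62.9 in Cd36 null (log2 change -1.99, adjusted p = 1.5e-26). Fam132a, which encodes a secreted C1q-related protein, was 70.1–82.6 in WT and 12.7–20.2 in Cd36 null, and Nlrp9b, an intestinal inflammasome receptor, 47.8–55.4 in WT and 9.95–15.7 in Cd36 null. The other falls were Cd36, Rps15a, Ankrd26, Dnah2, Apoe, Pik3cd, Mrps12, Wdr83os and Gm8909, down to -1.83. Trim34a, Trim12a, Ocm, Rps15a, Ankrd26, Dnah2, Apoe, Pik3cd, Mrps12 and Wdr83os passed the filter only through the WT libraries. Several of these genes have close copies in the genome (the Trim genes, H2-Bl and Gm8909, Mcpt1 and Mcpt2, Rps15a), and reads could be split between copies in the authors' counting, so their levels are uncertain.

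**Figure D2:**
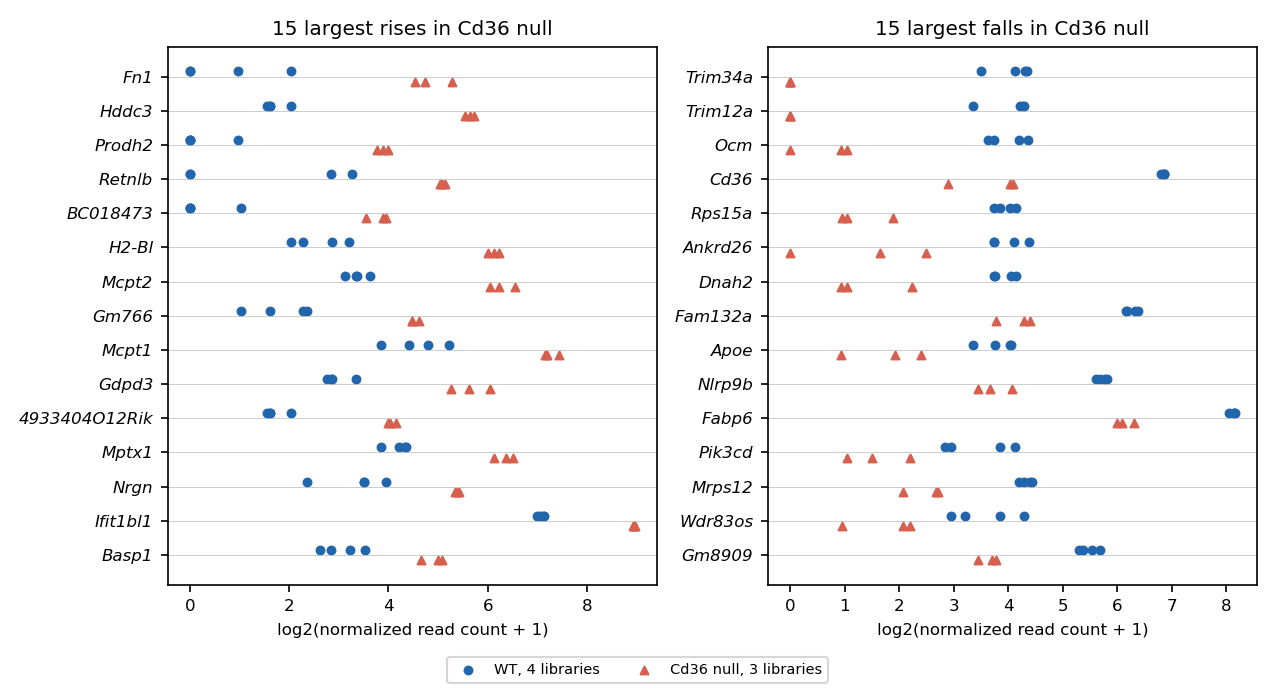
Levels in each library on the log2(level + 1) scale, WT as blue circles and Cd36 null as red triangles, for the 15 largest rises (left) and falls (right) among genes that passed, did not overlap and had a mean of at least 10 in the higher group. Trim34a and Trim12a lie at 0 in the 3 null libraries, and Ifit1bl1 at 127 to 139 in WT and 490 to 498 in Cd36 null.

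Genes of fatty acid uptake and handling were called in both directions, and apart from Cd36 their changes were small. Of the 11 genes tested of the uptake list, 4 were higher and 3 lower, Cd36 among them, where 4.21% and 3.3% of all genes were. Their median log2 change was 0.15 beside -0.0021 over all genes. The 2 cytosolic fatty acid binding proteins of the enterocyte went opposite ways. Fabp1 was 3323, 3492, 3357 and 3294 in WT and 4054, 4104 and 3876 in Cd36 null (log2 change 0.25, adjusted p = 1.4e-11), and Fabp2 was 9399, 9519, 9141 and 9238 in WT and 7939.7, 7702 and 7650.5 in Cd36 null (log2 change -0.26, adjusted p = 9.2e-18). The groups did not overlap for either gene. The acyl-CoA synthetase Acsl3 rose from 74.9–93.4 to 125–129.9 (log2 change 0.60, adjusted p = 3.4e-05), as did Acsl1 (log2 change 0.39, adjusted p = 0.0438), whose call was lost in 8 of 17 alternative settings, and the acyl-CoA binding protein Dbi (0.19). The transporter Slc27a4, also called FATP4, fell by 0.18 (adjusted p = 0.023). Slc27a2 was 60.4 in WT and 67.2 in Cd36 null (adjusted p = 0.64), and the main intestinal synthetase Acsl5 was 1309.5 in WT and 1223 in Cd36 null (adjusted p = 0.1).

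In the list of triglyceride synthesis and lipid droplet genes, 2 of 17 were higher and none lower, beside 4.21% and 3.3% of all genes. Dgat2, which adds the last acyl chain to diacylglycerol, was 112, 116, 94.6 and 92.4 in WT and 166, 166 and 154 in Cd36 null (log2 change 0.64, adjusted p = 1.3e-06). Lpin1, a phosphatidate phosphatase, was 9.24–22.7 in WT and 24.1–31.7 in Cd36 null (log2 change 0.91, adjusted p = 0.0087), a call lost in 6 alternatives. Mogat2 and Dgat1, the enzymes of the monoacylglycerol route by which enterocytes rebuild dietary fat, were 151 against 142 and 465 against 470.3 (adjusted p = 0.7 and 0.91). Among 17 genes of chylomicron assembly 3 were higher and 1 lower (the same shares over all genes apply). Apoa4, an apolipoprotein made during fat absorption, rose from 1996–2055 to 2451–2542 (log2 change 0.31, adjusted p = 8.1e-13), and Apoa1, the main protein of high-density lipoprotein, from 6305–6688 to 7853–8219.5 (log2 change 0.30, adjusted p = 4.3e-18). Prap1, a secreted lipid-binding protein, rose by 0.22. Apoe fell from 9.29–15.6 to 0.905–4.26 (log2 change -2.05, adjusted p = 1.0e-04), and it passed the filter only through the WT libraries. Apob, the structural protein of the chylomicron, was 2054 in WT and 2171 in Cd36 null, and Mttp, which loads it with lipid, 1205 in WT and 1122 in Cd36 null (adjusted p = 0.13 and 0.092).

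Of 19 mitochondrial oxidation genes, 2 were higher (Ucp2 by 0.42 and Acaa2 by 0.28) and none lower, beside 4.21% and 3.3% of all genes, with a median of 0.14. Acaa2 lost its call in 12 alternatives. Of 21 genes of peroxisomal and microsomal oxidation 2 were higher and none lower, with a median of 0.11. They were the thiolase Acaa1b (4.8, 2.07, 0 and 4.1 in WT and 7.24, 7.45 and 11.1 in Cd36 null; log2 change 1.61, adjusted p = 0.033), which passed the filter only through the null libraries and lost its call in 4 alternatives, and Phyh, the enzyme of branched-chain alpha-oxidation (log2 change 0.24, adjusted p = 0.005). The nuclear receptor Ppara, which switches on oxidation genes, was 138–166 in WT and 179–186 in Cd36 null (log2 change 0.27, adjusted p = 0.036), lost in 8 alternatives, while its target Cpt1a was 126 in WT and 133 in Cd36 null (adjusted p = 0.73). Of 25 genes of cholesterol synthesis and 13 of sterol absorption and efflux, none passed in limma's test, in which 1742 of all 9314 genes had an unadjusted p under 0.05. The cholesterol importer Npc1l1 was 559 in WT and 585 in Cd36 null (log2 change 0.07, adjusted p = 0.54). Among the genes listed as ligands, partners and signalling molecules of CD36, the Src-family kinase Fyn fell by 0.73 (adjusted p = 0.0038) and the tetraspanin Cd81 by 0.29, and Prkaa2, a catalytic subunit of the energy sensor AMPK, rose by 0.47; the other 10 tested did not pass.

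Single phospholipase genes held some of the larger changes among lipid genes. Of 15 tested genes of phospholipid synthesis and phospholipases 2 were higher and 2 lower, beside 4.21% and 3.3% of all genes. The other 11 did not pass, and the median log2 change was 0.05. Pla2g4c, a cytosolic phospholipase A2, was 512, 520.4, 490.5 and 501 in WT and 1838, 1784 and 1822 in Cd36 null (log2 change 1.84, adjusted p = 1.3e-41), the lowest adjusted p of all genes tested. Gdpd3, a lysophospholipase D, was 5.76, 6.2, 6.23 and 9.24 in WT and 48, 37.3 and 64.8 in Cd36 null (log2 change 2.68, adjusted p = 1.8e-12). The brush-border phospholipase Plb1 fell from 137–160.1 to 44.7–50.7 (log2 change -1.63, adjusted p = 2.2e-18). The secreted phospholipase Pla2g2a was 22.1, 17.6, 28.1 and 16.4 in WT and 6.33, 20.2 and 3.7 in Cd36 null, so null library 2 lay within the WT range (log2 change -1.26, adjusted p = 0.0046), and the call was lost without null library 3. Of 12 tested genes of fatty acid synthesis, elongation and desaturation 2 were higher and none lower, and 10 did not pass. Me1, which supplies NADPH for lipid synthesis, rose from 8.21–21.7 to 47.9–50.0 (log2 change 1.8, adjusted p = 1.5e-08).

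In bile acid handling, Fabp6 fell while Fgf15, the hormone that ileal enterocytes release in response to bile acids, was 8.64, 5.16, 7.27 and 10.3 in WT and 20.8, 27.7 and 25.9 in Cd36 null (log2 change 1.57, adjusted p = 4.1e-05). The bile acid receptor Nr1h4 (FXR) was 49.1 in WT and 45 in Cd36 null (adjusted p = 0.8), and the ileal importer Slc10a2 was 14.5 in WT and 9.15 in Cd36 null (adjusted p = 0.24). The basolateral exporter subunit Slc51a fell by 0.20 and the organic anion exporter Abcc2 rose by 0.17, each losing its call in DESeq2. Of 8 markers of proximal small intestine 3 were higher and none lower, and of 9 distal markers 1 was higher and 2 were lower. Bco1, the carotene-cleaving enzyme listed as a proximal marker, rose from 23.1–33.3 to 73.5–102 (log2 change 1.55, adjusted p = 2.3e-11), and the distal marker Osr2 fell from 130.1–164 to 78.8–87.9 (log2 change -0.80, adjusted p = 1.6e-08). Over all genes tested, 4.21% were higher and 3.3% lower. The 5 proximal markers that did not pass had log2 changes of 0.10 (Gata4), 0.09 (Onecut2), 0.09 (Lct), -0.19 (Rdh7) and -0.48 (Slc40a1). Among the 6 distal markers that did not pass were Slc10a2 (-0.62), Slc51b (-0.26), Clec2h (-0.0016), Nts (0.13) and Cyp27a1 (0.27). The median was 0.09 over the proximal list and -0.26 over the distal list. Whether the segments sampled differed between the groups was not tested.

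Sugar handling genes were called in 1 direction. Of 19 genes tested, 7 were higher in Cd36 null and none lower, beside 4.21% and 3.3% of all genes, with a median of 0.16. Pck1, the entry enzyme of gluconeogenesis, was 325, 249.9, 274 and 239 in WT and 444, 477 and 451 in Cd36 null (log2 change 0.76, adjusted p = 7.0e-13). The luminal glucose transporter Slc5a1 (SGLT1) rose from 4784–5090.4 to 5314–5558 (0.16), the basolateral transporter Slc2a2 (GLUT2) from 877–964 to 1027–1076 (0.21) and the fructose transporter Slc2a5 from 263–280.5 to 302–326 (0.21). In limma without a trend 1 gene of the list passed as higher, and Slc2a5 and Slc2a1 also lost their calls in DESeq2. The kinase gene Sgk1, which raises epithelial sodium uptake, rose from 76.9–115 to 258–289 (log2 change 1.53, adjusted p = 2.8e-19).

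**Figure D3:**
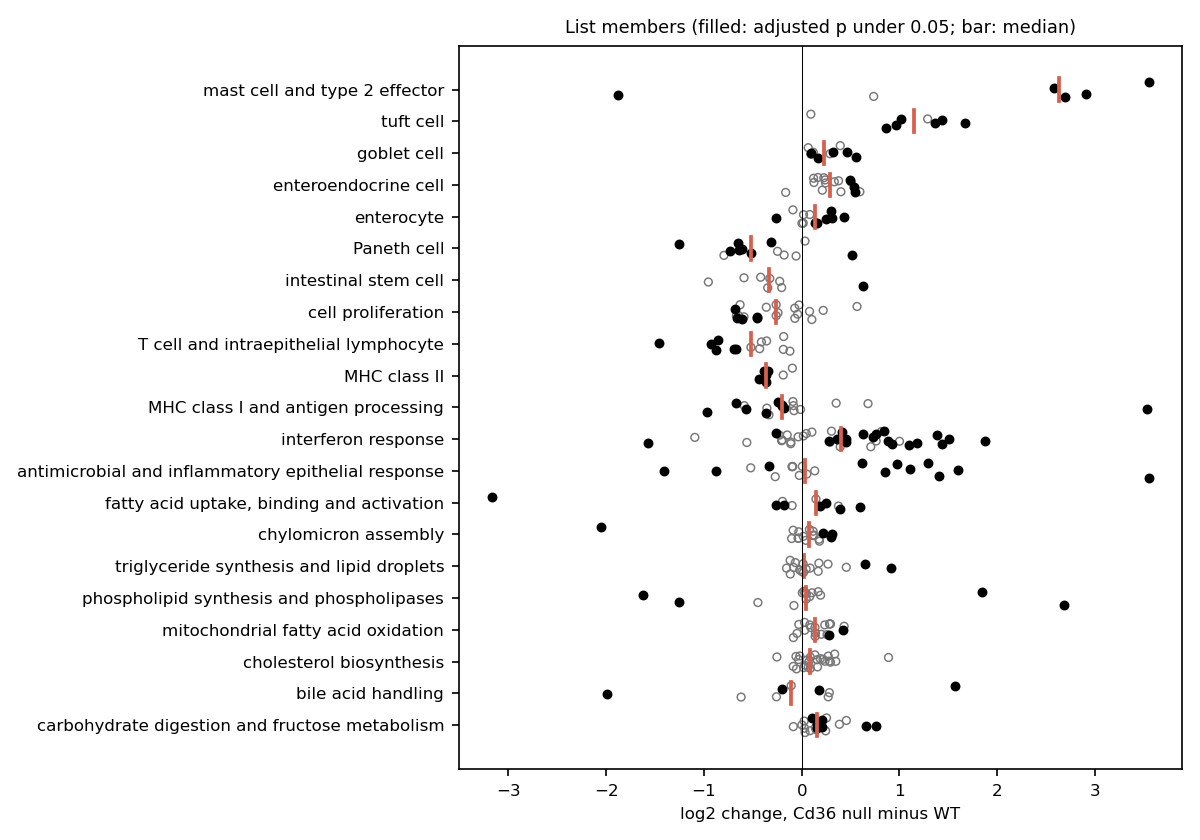
Each point is the log2 change, Cd36 null minus WT, of 1 tested member of the list named at the left; filled points passed at an adjusted p under 0.05, open points did not, and the red bar is the median. The tuft cell median is 1.15, the interferon response median 0.40, the Paneth cell median -0.51 and the cholesterol synthesis median 0.09.

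Of 8 tested markers of tuft cells, the chemosensory cells of the epithelium, 6 were higher in Cd36 null and none lower, beside 4.21% and 3.3% of all genes. The median log2 change was 1.15, and the summed level of the list was 213 to 271 in WT and 416 to 431 in Cd36 null. Trpm5, the cation channel of taste and tuft cell signalling, was 7.68, 8.26, 6.23 and 8.21 in WT and 31.7, 27.7 and 20.4 in Cd36 null (log2 change 1.67, adjusted p = 7.9e-06). Alox5ap, which is needed for leukotriene synthesis, was 31.7, 29.9, 32.2 and 32.8 in WT and 80.5, 82 and 87 in Cd36 null (log2 change 1.37, adjusted p = 8.0e-11), and the widely used marker Dclk1 was 40.3, 40.3, 41.6 and 41 in WT and 78.7, 74.5 and 71.2 in Cd36 null (log2 change 0.86, adjusted p = 5.2e-06). The groups did not overlap for any of the 3. Avil and Ptgs1 were also higher, by 1.44 and 0.97. Fyb (0.09) and Ltc4s (1.29) did not pass, and Pou2f3, Il25 and Gfi1b were under the filter. Siglecf, a lectin of eosinophils that tuft cells also express, was 16.3, 26.8, 19.7 and 22.6 in WT and 60.6, 51.1 and 52.7 in Cd36 null (log2 change 1.34, adjusted p = 1.4e-07), while the eosinophil genes Epx and Prg2 were listed at 0.

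Chymase and protease genes of mucosal mast cells were also higher. Mcpt1, a chymase of mucosal mast cells, was 20.2, 13.4, 36.4 and 26.7 in WT and 141, 146 and 172 in Cd36 null (log2 change 2.69, adjusted p = 4.7e-19). The chymase Mcpt2 was 7.68, 11.4, 9.35 and 9.24 in WT and 92.3, 65 and 74 in Cd36 null (log2 change 2.90, adjusted p = 5.1e-17). No null library overlapped a WT library for either gene. Cpa3, the mast cell carboxypeptidase, had 3 reads in the 4 WT libraries and 28 in the 3 null libraries, a ratio of 11.8 with an interval of 3.64 to 60.6. Il1rl1, the receptor for the type 2 alarmin IL-33, was in no list and was chosen after its values were seen. It had 1 read in WT and 27 in Cd36 null, a ratio of 34.1 with an interval of 5.62 to 1396. Il1rl1 passed the filter only through the null libraries, and the interval takes no account of how the gene was chosen. Of the 12 genes of the mast cell and type 2 list 6 passed the filter. Cpa3 and Retnlb did so only through the null libraries and Gata3 only through the WT libraries, so their number is no measure of the list. Gata3, a transcription factor of type 2 lymphocytes, was lower (9.6, 6.2, 8.31 and 8.21 in WT and 2.71, 1.06 and 0.925 in Cd36 null; log2 change -1.87, adjusted p = 0.0037). Kit, the mast cell growth factor receptor, was 12.6 in WT and 22 in Cd36 null (adjusted p = 0.063), and the cytokines Il4 and Il13 were listed at 0.

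The secretory lineages were called in different directions. Of 10 goblet cell genes 5 were higher and none lower, beside 4.21% and 3.3% of all genes, with a median of 0.23. In limma without a trend 1 passed as higher. Clca1, a secreted mucus-processing protein, was 1167, 1286, 1247 and 1248 in WT and 1799.7, 1879.7 and 1768 in Cd36 null (log2 change 0.55, adjusted p = 4.7e-19), and Muc2, the main gel-forming mucin, was 2579–2745 in WT and 2892–3004 in Cd36 null (log2 change 0.16, adjusted p = 1.2e-05). Of 13 Paneth cell genes 7 were lower and 1 higher, with a median of -0.51. The defensin genes Defa21, Defa22, Defa17, Defa24 and Defa3 fell by 0.65, 0.61, 0.51, 0.31 and 0.65, and the defensin-related Gm14851 was 174, 172, 169 and 169 in WT and 103, 114 and 92.5 in Cd36 null (log2 change -0.73, adjusted p = 1.3e-08). Without null library 3, 4 Paneth cell genes passed as lower, and 3 did in DESeq2. Defa3 kept its call in 9 of 17 alternative settings. Lysozyme (Lyz1), the best known Paneth cell product, was 268 in WT and 237 in Cd36 null (adjusted p = 0.12), and Ang4, an antimicrobial ribonuclease, was higher by 0.51. Defensin genes are near-identical copies, so reads may be split among them. Among 16 enteroendocrine genes 3 were higher, Chgb by 0.55, Reg4 by 0.54 and Cck by 0.49, and none lower, against the same shares of all genes. Cck lost its call in 9 alternatives.

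Of 21 proliferation genes tested, 5 were lower and none higher, beside 3.3% and 4.21% of all genes, with a median of -0.26. Top2a, the topoisomerase of dividing cells, was 187, 154, 159 and 156 in WT and 119, 116 and 122 in Cd36 null (log2 change -0.46, adjusted p = 2.5e-04), and Mki67 was 73–116 in WT and 53.7–65.1 in Cd36 null (log2 change -0.61, adjusted p = 4.5e-04). As lower there were 2 in DESeq2, 3 without null library 1 or WT library 2, and 0 in limma without a trend. Of 8 stem cell markers 1 was higher and none lower, with a median of -0.34. The 1 called was Sox9, a transcription factor of crypt and tuft cells (log2 change 0.62, adjusted p = 5.8e-06). The other 7 had log2 changes below 0 and did not pass, from -0.20 (Smoc2) to -0.96 (Cdca7, adjusted p = 0.087). Among them Olfm4 was 14.7 in WT and 9.41 in Cd36 null (adjusted p = 0.3).

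Of 13 T cell and intraepithelial lymphocyte genes 6 were lower in Cd36 null and none higher, beside 3.3% and 4.21% of all genes. The list had a median of -0.52 and a summed level of 1019 to 1348 in WT and 786 to 854 in Cd36 null. Itgae, the integrin chain that holds lymphocytes in the epithelium, was 49, 43.4, 50.9 and 53.4 in WT and 25.3, 20.2 and 31.5 in Cd36 null (log2 change -0.93, adjusted p = 6.7e-05). The chemokine Ccl5 was 289, 293, 410.4 and 354 in WT and 213, 168 and 166 in Cd36 null (log2 change -0.88, adjusted p = 3.5e-12), and the cytotoxic protease Gzmb was 131, 137, 184 and 146 in WT and 95, 103 and 80.5 in Cd36 null (log2 change -0.67, adjusted p = 2.4e-06). Cd8b1, Lck and Cd7 fell by 1.46, 0.86 and 0.69, and these 3 lost their calls in DESeq2. Cd8b1 kept its call in 8 of 16 alternative settings and Lck in 11 of 17. The genes Cd3d, Cd3e and Cd3g, which encode CD3 subunits of the T cell receptor complex, did not pass (log2 changes of -0.41, -0.12 and -0.43), nor did Gzma (-0.18). As lower there were 3 list members in DESeq2 and 3 in limma without a trend.

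**Figure D4:**
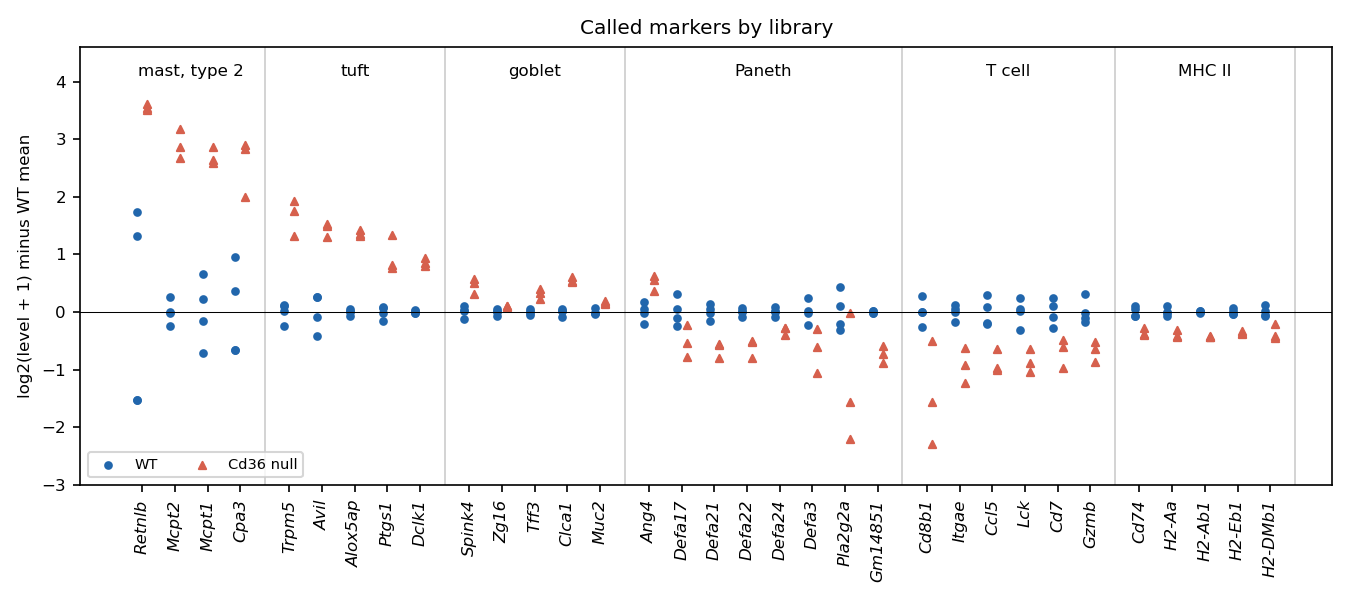
Difference of each library from the WT mean on the log2(level + 1) scale, WT as blue circles and Cd36 null as red triangles, for markers that passed. The null libraries lie above all WT libraries for Mcpt1, Mcpt2, Trpm5 and Dclk1 and below all of them for Itgae, Ccl5 and H2-Ab1, and null library 2 of Pla2g2a lies within the WT range.

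Of 7 MHC class II genes, which present antigen to CD4 T cells, 5 were lower and none higher, with a median of -0.36. H2-Ab1 was 1351, 1343, 1371 and 1374 in WT and 1013, 1006 and 1000.0 in Cd36 null (log2 change -0.43, adjusted p = 2.2e-14), and H2-Aa, H2-Eb1, H2-DMb1 and the invariant chain Cd74 fell by 0.39, 0.36, 0.36 and 0.35. Of 18 genes of MHC class I and antigen processing 8 were lower and 1 higher, where 3.3% and 4.21% of all genes were. Tap2, a subunit of the peptide transporter, was 126, 136, 106 and 103 in WT and 54.3, 78.8 and 49 in Cd36 null (log2 change -0.96, adjusted p = 2.9e-08), and the immunoproteasome subunits Psmb9 and Psmb8 fell by 0.68 and 0.57. H2-Bl went the other way, from 3.1–8.21 to 63.3–74 (log2 change 3.53, adjusted p = 1.2e-16), and it passed the filter only through the null libraries. In limma without a trend 1 class II gene and 1 class I gene passed as lower.

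Of 38 interferon response genes tested 17 were higher and 2 lower, beside 4.21% and 3.3% of all genes, with a median of 0.40. Interferon acts on such genes through the interferon-stimulated response element, a promoter sequence that the factor ISGF3 binds, and letters that match it stand before several of the genes that rose. The stretch before the start site is given for 5 of them from RefSeq (GRCm38.p6), 5′ to 3′ on the gene's own strand, with capitals marking each match of GAAA repeated after 2 free bases, read on either strand.
Ifit1 (chr19:34640765-34640833, plus strand): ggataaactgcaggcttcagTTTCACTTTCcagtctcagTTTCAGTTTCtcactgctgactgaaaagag
Ifit3 (chr19:34583353-34583436, plus strand): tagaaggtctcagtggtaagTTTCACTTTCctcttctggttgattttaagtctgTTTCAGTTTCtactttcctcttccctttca
Ifit1bl1 (chr19:34602043-34602092, minus strand): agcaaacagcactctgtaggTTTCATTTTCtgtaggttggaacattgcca
Isg15 (chr4:156200855-156200916, minus strand): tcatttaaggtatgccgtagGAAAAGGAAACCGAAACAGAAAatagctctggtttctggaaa
Rsad2 (chr12:26456543-26456592, minus strand): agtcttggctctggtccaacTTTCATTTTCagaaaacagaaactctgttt

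In these stretches the match nearest the start site begins 85 bases before it in Ifit1, 122 in Ifit3 and 104 in Ifit1bl1. In Isg15 it begins 66 bases before the start and in Rsad2 120. Another start site of Ifit1bl1, whose stretch is not printed here, has its match 23 bases before it. Of the 13 higher genes with a promoter window (250 bases before to 50 after the start), 7 held the element, as did 8 of the 12 list members that did not pass and 1 of the 2 that were lower (Igtp). Over the 7213 tested genes with a window the share was 3.81%, and 3.44% of all 32851 windows held it. Of all genes higher in Cd36 null with a window 6.51% held it, and of all genes lower 7.2%. Another 2 motifs were searched on both strands: AGGTCA repeated after 1 free base, the layout bound by PPAR, was in the windows of 3 of the 7213 genes, and TCACNCCAC, a sterol regulatory element, in those of 100.

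Ifit1bl1, a member of the antiviral IFIT family, was 137, 127, 139 and 131 in WT and 489.5, 498 and 496 in Cd36 null (log2 change 1.88, adjusted p = 1.0e-29). Its neighbour Ifit1 was 157, 174, 160.0 and 141 in WT and 330.3, 353 and 332 in Cd36 null (log2 change 1.10, adjusted p = 1.1e-17), and Ifit3 was 8.64, 8.26, 11.4 and 6.16 in WT and 27.1, 22.4 and 24.1 in Cd36 null (log2 change 1.43, adjusted p = 1.2e-04). The groups did not overlap for these genes. Xaf1, a pro-apoptotic interferon target, rose from 21.1–27 to 68.2–79.6 (log2 change 1.5, adjusted p = 1.0e-10), and Isg15, a ubiquitin-like modifier, by 0.77. Rsad2 (viperin), Usp18, Rtp4 and Oasl2 rose by 0.84, 0.92, 0.88 and 0.73. The 2 falls of the list, Ubd and Igtp, are both genes known as targets of interferon-γ. Ubd, a ubiquitin-like protein, was 491, 486, 475 and 482 in WT and 175, 153 and 157 in Cd36 null (log2 change -1.58, adjusted p = 5.0e-28). The GTPase gene Igtp fell by 0.26 (adjusted p = 0.0088), while Irf1 and Gbp2 did not pass (-0.11 and -0.56). In limma without a trend 9 genes of the list passed as higher. Ifit2, among the genes called higher in the main test, passed the filter only through the null libraries. The IFIT genes are close copies of each other, and how reads were divided among them is not given in the sources used here.

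Epithelial defence genes that rose included the pore-forming gasdermins Gsdmc2, Gsdmc3 and Gsdmc4, close copies of each other that lie side by side on chromosome 15. Gsdmc4 was 169, 173, 158 and 162 in WT and 414, 407 and 401 in Cd36 null (log2 change 1.29, adjusted p = 2.7e-22), and Gsdmc2 and Gsdmc3 rose by 1.59 and 1.40. Duox2, the hydrogen peroxide producing oxidase of the brush border, was 55.7, 54.7, 58.2 and 59.5 in WT and 111, 129 and 133 in Cd36 null (log2 change 1.11, adjusted p = 5.3e-11), and its maturation factor Duoxa2 rose from 245–281 to 498–542 (log2 change 0.97, adjusted p = 2.8e-19). The antibacterial lectin Reg3b, one of the most abundant transcripts, fell from 7865–8017 to 6231–6408 (log2 change -0.33, adjusted p = 1.7e-21), and Reg3g was 1775 in WT and 1658 in Cd36 null (adjusted p = 0.0572). In all, 8 of 20 genes of the list were higher and 3 lower, beside 4.21% and 3.3% of all genes tested. Of these, Retnlb passed the filter only through the null libraries and Ccl20 only through the WT libraries.

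Within 10 Mb of the start of Cd36, 4 of the 43 other tested genes passed (9.3%), beside 7.48% elsewhere. They were Abcb1b, a multidrug exporter (1.52), Dbf4, a regulator of DNA replication (-0.88), Rsbn1l (-0.46, a call lost in 8 alternatives) and Fgl2, a secreted fibrinogen-like protein (0.44). Within 5 Mb 2 of 13 passed (15.4%), and within 20 Mb 10 of 131 (7.63%). At 10 and 20 Mb the share was near that of other genes, and the 5 Mb window holds too few genes to read. Of the genes named above, Plb1 (-1.63) lies 14.5 Mb and Slc5a1 (0.16) 15.3 Mb from Cd36. Steap2 (-1.29) and Tada2b (1.22) were also called between 10 and 20 Mb away. Whether their place near Cd36 has a part in these changes was not tested.

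**Figure D5:**
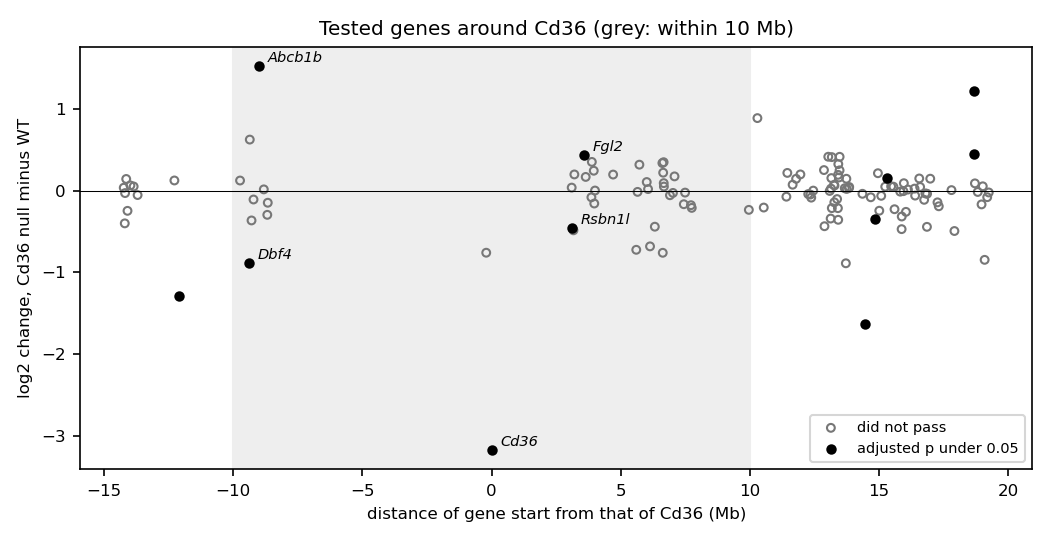
Log2 change, Cd36 null minus WT, against the distance of a gene's start from that of Cd36 in Mb, filled where the gene passed, with the 10 Mb on either side shaded. Cd36 stands alone at -3.17; the 4 other genes called in the shaded part lie between -0.88 (Dbf4) and 1.52 (Abcb1b).

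Calls were most frequent on chromosome 7, where 79 of 671 tested genes passed (11.8%) and 26 changed by over 1. Over all genes tested 7.5% passed, and 1.76% passed with a change over 1. Among the autosomes calls were least frequent on chromosome 13 (4.87%). Of the 30 leading genes 9 lie on chromosome 7 (30%), as do 671 of the 9291 tested genes with a position. The 9 are Hddc3, Prodh2 and Gdpd3 among the rises, and Trim34a, Trim12a, Rps15a, Apoe, Nlrp9b and Mrps12 among the falls. In some places neighbouring genes were called together. Trim34a, Trim12a and Trim30d fell within chr7:104244448-104507853, by 4.07, 4.03 and 1.43. Ifit2, Ifit3, Ifit1bl1 and Ifit1 rose within chr19:34550550-34662981. At chr17:36080110-36168602 H2-Bl rose while Gm8909 fell.

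The enterocyte libraries of the series, 4 from WT and 5 from Mfge8 null mice of the same labelled strain, were fitted separately, and 303 of 9432 genes passed there (3.21%). The comparisons share no libraries, but the tables were normalized separately and no difference between them was tested. Of the 30 leading genes, 23 were tested in enterocytes and 6 passed there, each in the same direction: Hddc3, Gdpd3, Trim34a, Trim12a, Rps15a and Cd36. Except for Cd36, these lie on chromosome 7. Whether their position, and not the loss of either targeted gene, has a part in the shared calls was not tested. Trim12a was 75.4 ± 6.37 in WT and 0.392 ± 0.876 in Mfge8 null enterocytes (SD, n = 4 and 5), and Hddc3 was 2.25 ± 0.658 and 19.2 ± 6.17. Cd36 was 135 ± 20.2 in WT and 65.8 ± 25.1 in Mfge8 null enterocytes (log2 change -1.10, adjusted p = 0.023).

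Over all genes called in the intestine and tested in both tables, 75 of 650 were also called in enterocytes (11.5%), which is 26.4% of the 284 enterocyte calls tested in the intestine. The direction was the same in 43 and opposite in 32. Of the 43, 13 lie on chromosome 7 (30.2%), against 1 of the 32 and 7.23% of the 8560 genes tested in both. Pla2g4c, also on chromosome 7, was 3.79 ± 1 in WT and 1172 ± 1490.3 in Mfge8 null enterocytes, beside 490.5–520.4 in WT and 1784–1838 in Cd36 null in WT and Cd36 null intestine. Gsdmc4 was 43 ± 30.5 and 199 ± 97.4, and Duox2 5.07 ± 3.95 and 63.9 ± 18.2, both higher in each null group. Opposite values came from Ubd, at 139 ± 143 and 796 ± 575 in enterocytes, and from the class II gene H2-Aa, at 176 ± 77.6 and 1558 ± 445, against falls of 1.58 and 0.39 in the Cd36 null intestine. Of the genes of tuft and mast cells, Trpm5 had a log2 change of 0.53 in enterocytes (adjusted p = 0.55), Dclk1 of 0.57 (adjusted p = 0.38) and Mcpt1 of 0.57 (adjusted p = 0.74), none of which passed.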

How the data were processed

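The authors deposited a table of normalized read counts per gene (a signal value never below 0) for 7 intestine libraries, and another for 9 enterocyte libraries. The submitters' processing notes name DESeq2 2.11.40, HTSeq 0.91, HISAT2 2.1.0 and Trimmomatic 0.38.1 together with build mm10. Their settings, strand and use of molecular identifiers are not given in the sources used here. Each value of the deposited intestine table was a whole multiple of 1 step per library (tolerance 1e-06 of the value; 100% of values), so whole read counts were recovered. The main test was limma 3.58.1 (R 4.3.3) with a mean-variance trend, fitted to log2(value + 1). Its p-values were 2-sided and adjusted over 9314 genes after Benjamini and Hochberg. On the recovered reads edgeR 4.0.16 called 754 genes and DESeq2 1.42.0 called 318. The fits were also run on simulated counts with known changes, as a check of the code only, and no result here rests on that. RefSeq (GRCm38.p6, the sequence of mm10) gave positions for 99.8% of the genes tested and promoter windows for 7213.

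Named genes were Cd36, the 15 largest rises and falls that passed without overlap and with a mean of at least 10 in the higher group, up to 6 passing members of each list (where few passed, the most abundant members), and genes called within 10 Mb of Cd36. Further list members (such as Isg15, Reg3b, Duoxa2, Igtp and those given as not passing), Il1rl1 and Trim30d were chosen after their values were seen. The genes, the 33 pathway lists and the 22 marker lists were chosen with earlier results of these data known. Over the distinct pathway genes, 134 of 565 tested passed (86 higher, 48 lower), where 7.5% of all genes tested did. Some list members are not reported here.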

Additional observations from a re-analysis of the deposited data

Results flagged for a closer look

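In 16 of the 170 named genes 1 WT library stood apart from the other 3 by more than Dixon's limit for 4 values, a share of 9.41% where chance gives about 1 in 20. The 3 Cd36 null libraries are too few for this test. WT library 3 stood apart in 7 genes: Hddc3 (3.12, others 1.92 to 2.07), 4933404O12Rik (3.12, others 1.92 to 2.07), Fabp6 (263, others 281 to 284), Psmb9 (97.7, others 110.5 to 112), Fos (235, others 260.3 to 262), Klf4 (207, others 235 to 239) and Cck (46.8, others 35.9 to 36.5). WT library 1 stood apart in Prodh2 (0.96, others 0), Xaf1 (21.1, others 26.7 to 27), Ifit2 (5.76, others 3.08 to 3.12) and Top2a (187, others 154 to 159). WT library 4 did so in BC018473 (1.03, others 0), Gdpd3 (9.24, others 5.76 to 6.23), Trim12a (9.24, others 17.7 to 18.6) and Muc2 (2745, others 2579 to 2607), and WT library 2 in Apoa4 (2055, others 1996 to 2003). The values of Hddc3, Prodh2, BC018473, Gdpd3, 4933404O12Rik and Ifit2 are those of 1 to 9 reads.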

How the results depend on the processing

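The number of genes called was 699; it was 229 in limma without a trend, 318 in DESeq2 and 490 to 615 with 1 library left out. With a change over 1 the number was 164, against 90 with pseudocount 5, 77 with a value of at least 20, 108 without a trend, 104 in DESeq2 and 137 to 158 with 1 library left out. Of the 134 pathway genes, 42 passed without a trend, 80 in DESeq2 and 103 to 128 with 1 library left out. Without a trend the lists gave, in place of the counts in the report, 3 T cell genes, 3 Paneth cell, 1 goblet cell, 9 interferon, 1 MHC class II, 1 MHC class I, 0 proliferation, 1 fatty acid uptake, 1 carbohydrate, 0 enterocyte and 1 enteroendocrine gene. DESeq2 gave 3 T cell, 3 Paneth cell and 2 proliferation genes. With 1 library left out the counts were 4 to 7 (T cell and Paneth cell), 4 to 5 (goblet cell and MHC class II), 12 to 16 (interferon), 7 to 8 (MHC class I), 3 to 4 (proliferation and fatty acid uptake), 5 to 8 (carbohydrate), 5 to 6 (enterocyte) and 2 to 3 (enteroendocrine). Calls near Cd36 numbered 2 within 5 Mb and 10 within 20 Mb. The log2 change of the targeted gene Cd36 was -3.38 to -2.79 with 1 library left out.

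Same-numbered libraries of the 2 genotypes did not deviate together (correlations -0.015, 0.003 and 0.0001), so the numbers do not pair them. With the number as a block 643 genes were called, and the log2 change of the targeted gene Cd36 was -3.17. Of 169 named genes 67 kept their call in each setting that could be computed for them, and 0 changed direction. At 850297 to 1000694 reads a library, genes of a few reads are imprecise, and the p-values hold for 2 preparations.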
